A study of Mus musculus with 10 samples.

Results

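The nuclear genes for respiratory complexes II to V were followed in ribosome-bound RNA of Drd1-expressing cells and in 1 total RNA library of mouse striatum. Members were the rows whose gene symbol begins with Cox4 to Cox8, Uqcr or Atp5, or is Sdha, Sdhb, Sdhc, Sdhd, Cyc1 or Cycs, with no measured value used in the choice. This gave 49 of 32531 gene rows: 4 of complex II, 9 of complex III, 1 for somatic cytochrome c, 18 of complex IV and 17 of complex V. All 10 libraries came from the whole striatum of mice of the Drd1-TRAP CP73 line, on a background of FVB/N-Swiss Webster x C57BL/6 brought to C57BL/6 for at least 9 generations. These mice carry an EGFP-tagged ribosomal protein L10a driven by Drd1 regulatory sequence, so that the tag marks the cells that express the dopamine D1 receptor wherever they lie in the dissected tissue. Ribosomes bearing the tag were purified on anti-EGFP beads after saline self-administration (3 libraries), cocaine self-administration (3 libraries) or as a yoked control (3 libraries), and all 3 groups carry the tag. The input was 1 library of total RNA, with no drug group given. Access to intravenous cocaine was short in this study. What the yoked mice received, their sex and age, and whether the 3 libraries of each group stand for different animals are not given in the labels, so p-values measure only the spread between these libraries, which may be technical.

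The respiratory chain of the inner mitochondrial membrane passes electrons to oxygen and stores the energy as a proton gradient. Complex II (succinate dehydrogenase) feeds electrons from succinate into the ubiquinone pool, complex III (the cytochrome bc1 complex) moves them on to cytochrome c, and complex IV (cytochrome c oxidase) reduces oxygen. Complex V (ATP synthase) turns the gradient into ATP, and neurons depend on it to restore ion gradients after firing. A few subunits of complexes III to V are encoded in mitochondrial DNA and translated inside the organelle. The remainder, and all of complex II, are nuclear genes translated on cytosolic ribosomes, which are the ribosomes that carry the tag. Several subunits of complex IV exist as a widely expressed form and a form typical of muscle, lung or testis.

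The pull-downs held 12528806 (saline 2) to 45242175 (yoked 3) counts in genes and the input 40519976, and each saline library was shallower than every other pull-down. Markers of D1 medium spiny neurons summed to 2232 to 3274 CPM (counts scaled to 1000000 gene counts per library) in the pull-downs against 1116 for the input, and those of D2 medium spiny neurons to 147 to 493 against 1481. All 7 astrocyte and all 7 oligodendrocyte markers still had counts in every pull-down, with sums of 142 to 818 against 2155 CPM and 188 to 968 against 2537 CPM. The 5 cortical glutamatergic neuron markers summed to 24.1 CPM in saline 1 and 21.6 in yoked 2, against 32.7 for the input. They summed to 70.2 to 120 CPM in the other pull-downs, and their part in the ratios below was not tested. Lane 3 held the saline, lane 1 the cocaine and lane 2 the yoked libraries, and the input was on lane 5, and the effect of the lane cannot be told apart from that of the group. Between-group levels below are normalised CPM, scaled by the trimmed mean of M values (TMM).

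Of the 49 members, 40 had a mean of at least 8.70 CPM over the 9 pull-downs and 9 had 1.49 CPM or less, and a boundary of 5 CPM in this gap, placed after the values were seen, separates the sets called expressed and low here. The expressed set holds all 4 members of complex II, all 9 of complex III, Cycs, 11 of 18 of complex IV and 15 of 17 of complex V. Counts from all members together made up 0.909% (saline 3) to 1.20% (yoked 3) of all gene counts in a pull-down and 0.417% for the input. The replicate spread of the expressed members was a median biological coefficient of variation of 14.7%, against 16.6% over 9856 genes of the same minimum level. It ran from 11.5% for Atp5b, the catalytic beta subunit of ATP synthase, to 28.8% for Cox6c, a small subunit of complex IV. The members lie on 19 chromosomes and are short genes, with a median genomic span of 6.41 kb against 24.98 kb for 13937 tested genes, in the RefSeq annotation of GRCm38.p6. The symbol rule also takes in Atp5s and Atp5sl, which RefSeq now lists as Dmac2l and Dmac2 and which are not subunits of the ATP synthase.

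Promoter stretches of 5 members are shown because Cox8a and Cox6b1 (complex IV) had the largest differences between cocaine and saline among the expressed members, Atp5e (complex V) lay near the top of the enrichment over the input, and Cox6a1 and Atp5k hold matches to both motifs searched here that are named after nuclear respiratory factors. Each runs from 200 bases before the RefSeq transcription start to 20 bases after it, 5′ to 3′ on the strand of the gene, which is the minus strand in all 5, on GRCm38.p6. They are Cox8a at chr19:7217597-7217816, Cox6b1 at chr7:30626095-30626314, Cox6a1 at chr5:115348939-115349158, Atp5k at chr5:108434380-108434599 and Atp5e at chr2:174464082-174464301. Capitals mark exact matches on either strand. The longer run, of 10 capitals and palindromic, is a site of nuclear respiratory factor 1 (NRF1), and the shorter run is CCGGAAG, a core of ETS factors such as GABP (NRF2), whose reverse complement reads CTTCCGG.
Cox8a: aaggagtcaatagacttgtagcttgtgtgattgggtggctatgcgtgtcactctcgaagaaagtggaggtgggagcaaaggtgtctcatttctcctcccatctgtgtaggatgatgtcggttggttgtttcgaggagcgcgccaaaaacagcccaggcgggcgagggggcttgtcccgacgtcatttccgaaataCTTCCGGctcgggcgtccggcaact
Cox6b1: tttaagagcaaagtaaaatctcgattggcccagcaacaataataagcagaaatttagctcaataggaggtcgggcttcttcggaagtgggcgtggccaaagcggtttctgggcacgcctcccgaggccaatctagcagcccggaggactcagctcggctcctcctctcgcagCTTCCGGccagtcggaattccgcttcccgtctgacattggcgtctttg
Cox6a1: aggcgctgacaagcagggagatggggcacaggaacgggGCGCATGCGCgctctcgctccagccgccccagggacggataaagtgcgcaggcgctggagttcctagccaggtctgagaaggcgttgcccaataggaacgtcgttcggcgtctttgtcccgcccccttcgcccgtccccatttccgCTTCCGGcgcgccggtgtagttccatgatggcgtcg
Atp5k: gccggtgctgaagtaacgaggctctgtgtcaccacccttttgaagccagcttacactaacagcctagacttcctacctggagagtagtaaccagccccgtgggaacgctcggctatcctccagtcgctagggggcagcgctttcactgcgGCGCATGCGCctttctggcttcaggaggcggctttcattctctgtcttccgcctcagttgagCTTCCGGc
Atp5e: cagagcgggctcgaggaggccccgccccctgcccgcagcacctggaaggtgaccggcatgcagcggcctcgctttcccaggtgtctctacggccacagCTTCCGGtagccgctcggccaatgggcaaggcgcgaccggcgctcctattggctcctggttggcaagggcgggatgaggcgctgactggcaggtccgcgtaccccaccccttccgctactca
In the table of RefSeq promoters, which spans 250 bases before to 50 after each start, 38 of the 49 members had an entry. The NRF1 site was found in 4 of these 38 (10.5%: Atp5g2, Atp5k, Cox6a1, Uqcrc1), against 1.07% of 27025 genes and 2.28% of the 10553 genes tested here. The ETS core was found in 12 (31.6%), against 9.93% and 18.6%, and AAGATGGCG, a site of YY1, in 3 (7.89%: Atp5j, Atp5j2, Atp5sl), against 1.64% and 3.33%. The short SP1 core GGGCGG was in 39.5% of the members' promoters, 38.2% of those of all genes and 68.4% of those of tested genes, and TATAAA in 7.89%, 15.7% and 8.55%. Any of the first 3 motifs was in 16 of 38 (42.1%), against 12.1% of all and 22.9% of tested genes. These are matches of letters in a fixed window and show no binding.

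All 40 expressed members, a set chosen by the pull-down level that enters the ratio, lay above the input in each of the 9 pull-downs. Expression in the pull-downs was set against the input as the ratio of CPM + 0.5, with 1 input library for all 9, so there is no test and the ratios share the error of that library. Of 43 members with an input count of at least 50, 40 were above the input in all 9 pull-downs, where 28.6% of 13787 genes were, and 3 were below it in all 9, where 37.9% were. The members' median ratio was 2.69, against 0.939 over all genes, and 26 of them were at least 2-fold above the input in every pull-down, as were 3.39% of all genes. The median of the 43 ran from 2.20 in saline 3 to 3.09 in cocaine 2. Bulk ribosome-bound RNA was set against bulk total RNA here. A higher share of D1 cells, more of these RNAs per D1 cell and more of them on ribosomes cannot be told apart. The glial sums given above were lower in every pull-down than in the input, and their part in the ratio was not tested.

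**Figure D1:**
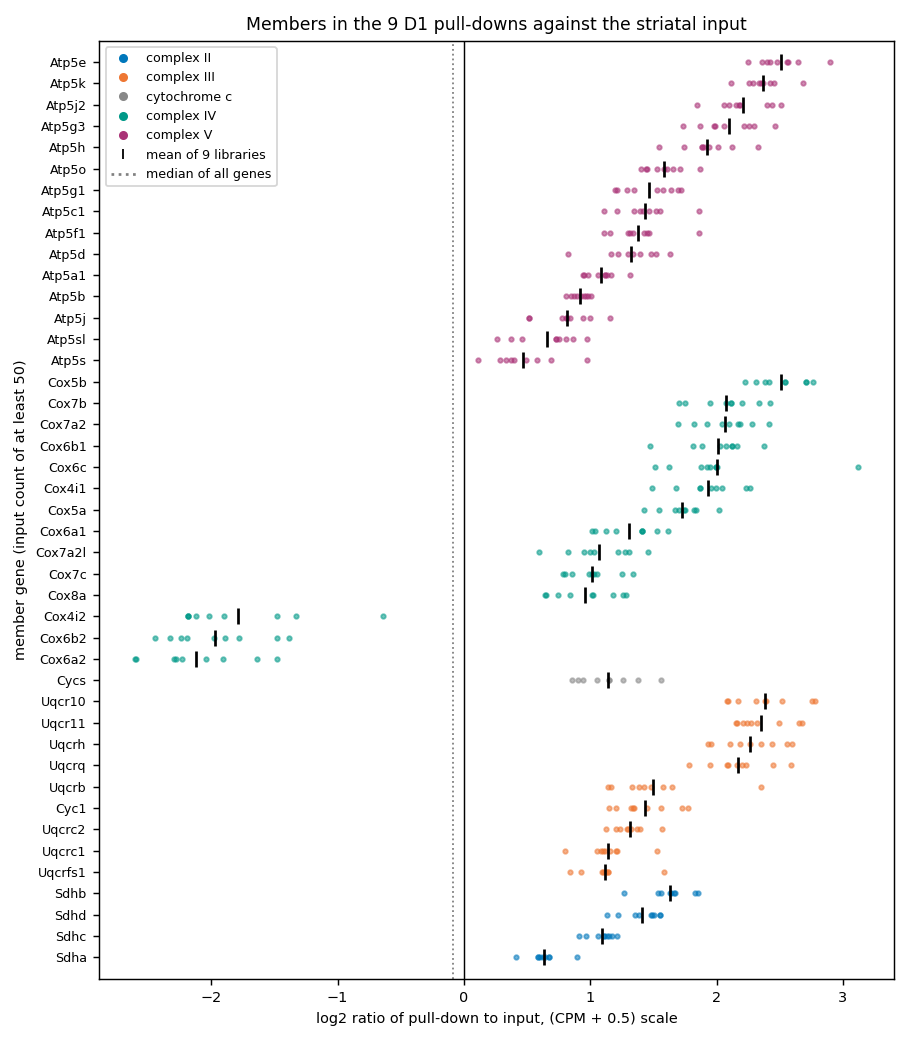
Log2 ratio of each pull-down to the input (horizontal axis, CPM + 0.5 scale) for the 43 members with an input count of at least 50 (vertical axis), coloured by complex; dots are the 9 libraries, bars their mean, and the dotted line is the median of 13787 genes. The 40 expressed members lie right of 0 in every library, and Cox4i2, Cox6b2 and Cox6a2 lie left of it in every library.

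Complex II had a median ratio of 2.38. Sdha, the flavoprotein that oxidises succinate, had 387 ± 34.8 CPM over the pull-downs (mean ± SD, n = 9) against 249 for the input, a ratio of 1.55 that ran from 1.33 to 1.86. Sdhb, the iron-sulfur subunit, was at 125 ± 14.6 against 39.9 CPM, a ratio of 3.09. The 2 membrane anchors lay between them, Sdhc at 2.13 and Sdhd at 2.65. Sdha and Sdhb did not overlap: the highest library of Sdha, at 1.86, was below the lowest of Sdhb, at 2.40. Subunits of one enzyme thus differed in ratio by more than the spread between pull-downs, which does not hold the error of the input.

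Complex III had a median ratio of 2.83 over 9 genes, all above the input in every library. Its electron carriers were Cyc1, the cytochrome c1 subunit, at 2.69 (119 ± 18.7 against 43.6 CPM) and Uqcrfs1, the Rieske iron-sulfur protein, at 2.17. The core subunits Uqcrc1 and Uqcrc2, the largest proteins of the complex, were at 2.20 and 2.48. Its small subunits reached higher ratios, namely Uqcr10 at 5.23 (304 ± 56.6 against 56.9 CPM), Uqcr11 at 5.11, Uqcrh at 4.81 and Uqcrq at 4.50, while Uqcrb was at 2.83. Cycs, the soluble carrier between complexes III and IV, was at 8.70 ± 1.54 against 3.63 CPM, a ratio of 2.20.

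Complex IV had a median ratio of 2.86 over its 14 members with an input count of at least 50, and of 3.82 over the 11 expressed ones, a set chosen by the pull-down level that enters the ratio. Cox5b, a subunit that binds zinc, had the highest ratio of all members at 5.69, with 112 ± 14.8 CPM against 19.1, and ran from 4.67 in saline 3 to 6.78 in cocaine 3. Cox4i1 was at 3.82, its neighbour in the enzyme Cox5a at 3.30, and Cox7b, Cox7a2 and Cox6b1 at 4.20, 4.20 and 4.02, while Cox6c ran from 2.86 to 8.70, its top in yoked 3. Lower ratios belonged to Cox6a1 (2.47), Cox7a2l, which takes part in joining complexes III and IV (2.10), Cox7c (2.02) and Cox8a (1.94). Among the 15 expressed members of complex V the median was 2.69. The F1 head subunits Atp5b and Atp5a1 were at 1.89 (2059 ± 94.9 against 1089.7 CPM) and 2.12, the gamma subunit Atp5c1 at 2.69, the delta subunit Atp5d at 2.49 and the epsilon subunit Atp5e at 5.68 (226 ± 30.9 against 39.1 CPM). Subunits of the membrane part and the stalk included Atp5k at 5.15, Atp5j2 at 4.61, Atp5h at 3.80, Atp5f1, running from 2.15 to 3.63, and Atp5j at 1.76. The c-ring is encoded by separate genes for one mature protein, of which Atp5g3 was at 4.28 and Atp5g1 at 2.76, with 358 and 21.5 CPM in the pull-downs. Atp5s and Atp5sl, the members that are not subunits, were at 1.38 and 1.58.

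The ratio ran against gene size within the members as it did over all genes: across 40 expressed members Spearman's rho with genomic span was -0.36, and across 12957 genes it was -0.30. These are descriptions across genes that share the same 10 libraries, and transcript length was not used here.

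The forms of complex IV known from other tissues were low in these cells. Cox6a2, the heart and skeletal muscle form of Cox6a1, had 160 counts over all 9 pull-downs together against 156 for the input, or 0.551 CPM (pooled) against 3.85, a ratio of 0.143 (95% exact interval 0.114 to 0.180, counting error only). For Cox4i2, the lung form of Cox4i1, the ratio was 0.0814 (0.0543 to 0.121), with 0 counts in 3 of the 9 pull-downs, and for Cox6b2, the testis form of Cox6b1, it was 0.0963 (0.0698 to 0.132). The paired forms thus stood on opposite sides of the input: Cox6a1, Cox4i1 and Cox6b1 were above it in 9 of 9 pull-downs and Cox6a2, Cox4i2 and Cox6b2 below it in 9 of 9. Of these 3, Cox6a2 was at 0.367, 0.542 and 0.435 normalised CPM in saline, 0.387, 0.673 and 0.228 in cocaine and 1.04, 0.890 and 0.231 in yoked libraries, with overlap between all groups. Interneuron markers, among them Pvalb, summed to 23.7 to 73.1 CPM, against 167 for the input, and 6 endothelial and mural markers to 1.99 to 10.1 against 27.9; their part in these ratios was not tested. Cox7a1, the muscle form of Cox7a2, was at 0.310 against 0.518 CPM, a ratio of 0.598 whose interval of 0.369 to 1.01 includes 1. Cox8b, the muscle form of Cox8a, had 5 counts in all 9 pull-downs together against 2 for the input, and Cox8c had 1 and 0. Cox7b2 was at 1.51 against 1.11 CPM, a ratio of 1.36 (1.001 to 1.89). Muscle markers summed to 30.8 to 47.4 CPM, against 22.0 for the input, with Myl1 at 0 in 6 of the 9 and Myh6 at 0 in 3.

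Both other low members are genes of complex V. Atp5g2, the remaining c-ring gene, was at 0.372 against 1.01 CPM, a ratio of 0.368 (0.255 to 0.541), and was below the input in 9 of 9. Atp5l, subunit g of the membrane part, had 97 counts over the pull-downs and 8 over the input, a ratio of 1.69 (0.826 to 4.03). Subunit g is a general part of the enzyme, yet its row held 0.334 CPM. Alignments to more than 1 place are not in the gene counts, so genes with close copies, such as Atp5g2, Atp5l, Cox7c, Cox6c, Uqcrb and Cycs may be, are uncertain in level; this was not tested.

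Other genes of oxidative phosphorylation were described from lists by their counts. Complex I here means symbols that begin with Nduf and then a, b, c, s or v, which takes in Ndufa4 and any Ndufaf assembly factors. Its median ratio was 3.23 over 44 genes, 43 of them above the input in all 9 pull-downs. Assembly factors of complexes II to V were at 1.59, with 22 of 30 above it in all 9 and 1 below. Uqcc2 and Coa3, which help to build complexes III and IV, were at 5.11 and 4.76, and Coa5 was at 0.671. Ndufa4, now counted as a subunit of complex IV, was at 5.58, Atpif1, the inhibitor of ATP synthase, at 3.67, Usmg5 at 3.29 and 2010107E04Rik, the proteolipid of complex V, at 6.27. Of 9 transcription regulators, whose median was 0.889, 1 was above the input in all 9, Tfam (1.59), the packaging factor of mitochondrial DNA, and 3 were below it in all 9, Ppargc1a (0.640), Ppargc1b (0.531) and Gabpa (0.707). Cytosolic ribosomal protein genes had a median of 1.52, with 49 of 63 above the input in all 9.

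Between libraries most members deviated in the same direction, as a block, and libraries of a group differed in it. For each of the 40 expressed members, every library was set against the 9-library mean on the log2 scale of normalised CPM + 0.5. In saline 3, 0 of 40 members were above their mean (median deviation -0.26), and this library was the lowest of all 9 for 25 of them. Yoked 2 was similar, with 2 of 40 above and a median of -0.20. By contrast 37 of 40 were above their mean in cocaine 2 (0.24) and 37 in cocaine 3 (0.15), which were the highest library for 14 and 9 members. Yoked 3 had 30 of 40 above and a median of 0.17, and it was the highest library for 16 members, more than any other. Cocaine 1 lay close to the middle with 17 of 40 above (-0.0083), as did saline 1 (13 of 40, -0.06) and yoked 1 (13 of 40, -0.04), while saline 2 had 7 of 40 (-0.13). Over 9856 genes of the same minimum level the medians stayed between -0.02 and 0.03 and 46.1% to 53.0% of genes were above their mean in a library. Among these genes saline 3 was the lowest library for 1168. Cocaine 2, cocaine 3 and yoked 3 were the highest for 1366, 1069 and 3150, so yoked 3 led there too.

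**Figure D2:**
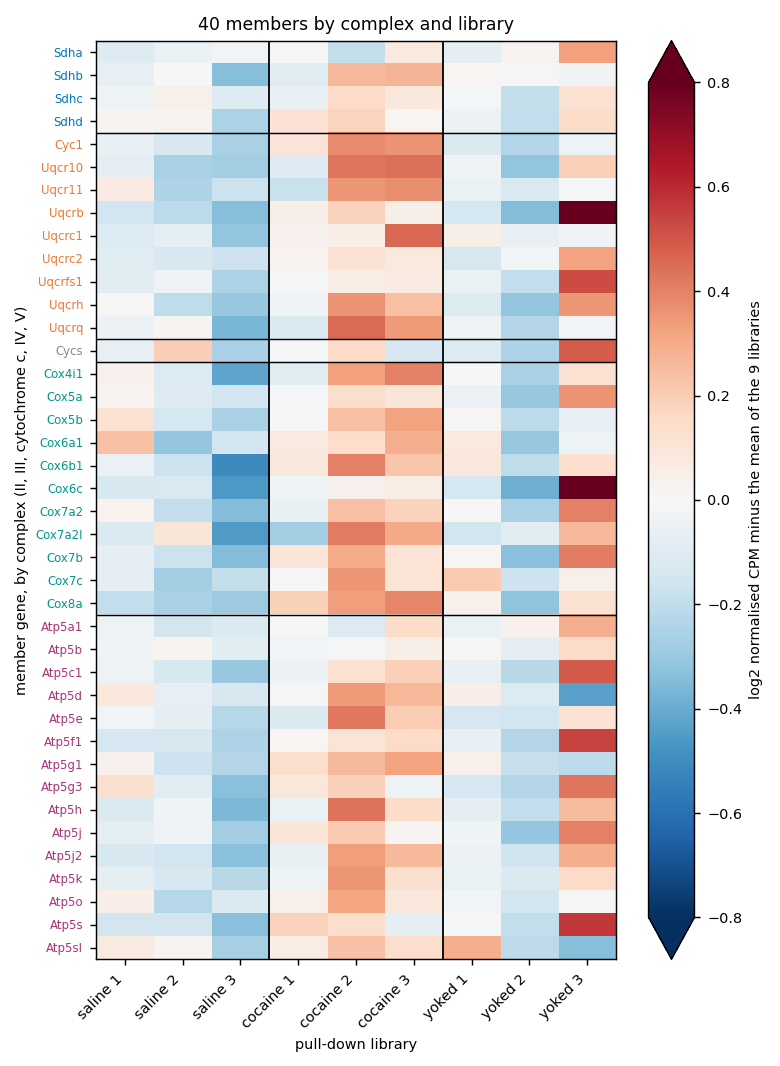
Log2 deviation of each of the 40 expressed members (rows, by complex) from its mean over the 9 pull-downs (columns, by group); red is above and blue below the mean, and colours stop at 0.8 in both directions. Saline 3 and yoked 2 are blue and cocaine 2 and cocaine 3 red over most rows, and yoked 3 holds the darkest cells, Cox6c and Uqcrb.

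The size of the deviation varied with the complex. In cocaine 2 the median deviation was 0.16 for complex II, 0.35 for complex III, 0.29 for complex IV and 0.23 for complex V, and in cocaine 3 it was 0.08, 0.34, 0.22 and 0.15. All 9 members of complex III and all 11 of complex IV were above their mean in both libraries. In saline 3 the same medians were -0.18, -0.28, -0.35 and -0.25, and in yoked 2 -0.10, -0.23, -0.26 and -0.19. Complex II had the median nearest to 0 of the 4 complexes in each of these 4 libraries; the difference between complexes was not tested. Within complex II it was Sdha that departed from the block, at 338 normalised CPM in cocaine 2, its lowest library. The complex I list, which holds no member, had -0.24 in saline 3, -0.22 in yoked 2, 0.24 in cocaine 2 and 0.18 in cocaine 3. The block was thus not particular to the members.

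**Figure D3:**
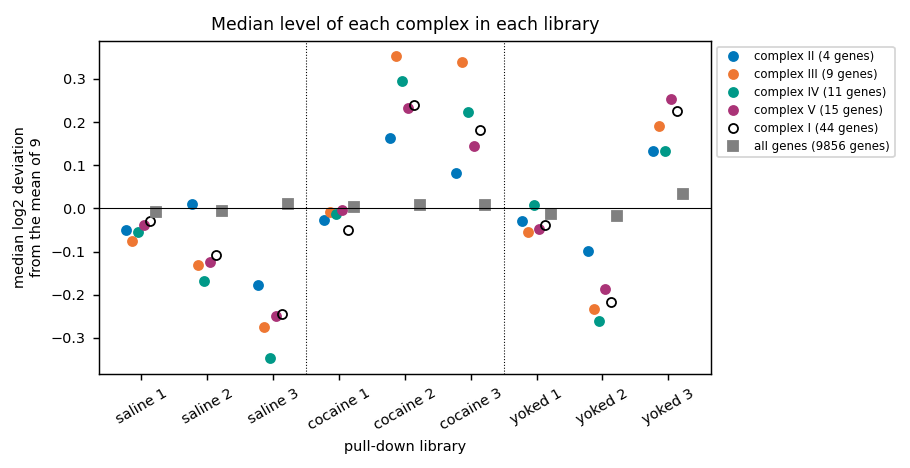
Median log2 deviation from the mean of the 9 pull-downs (vertical axis) of complexes II, III, IV and V (filled circles), complex I (open circles) and 9856 genes (squares) in each library (horizontal axis); the number of genes is given in the key. Complexes lie together below 0 in saline 3 and yoked 2 and stand together above 0 in cocaine 2, cocaine 3 and yoked 3, while all genes stay near 0.

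Other measures also varied between libraries. Glial markers (astrocyte, oligodendrocyte and microglial lists together) summed to 403 CPM in saline 3, 699 in cocaine 2, 376 in cocaine 3, 345 in yoked 3 and 1811 in yoked 2, and to 657 to 1103 in the other 4 pull-downs. The ribosomal RNA row Rn45s took 16.9% and 20.5% of gene counts in cocaine 2 and cocaine 3, against 11.4% in cocaine 1 and 10.5% to 15.2% in the saline and yoked libraries, with 14.3% in saline 3 and 15.1% in yoked 3. Across 9693 genes Spearman's rho between the library's deviation and genomic span was -0.46 for cocaine 2, -0.30 for cocaine 3, 0.17 for cocaine 1, 0.31 for saline 3, 0.26 for yoked 2 and 0.06 for yoked 3. For saline 1, saline 2 and yoked 1 it was 0.05, 0.07 and -0.08. Among the 40 members alone these were -0.50, -0.28, -0.01, 0.0041, 0.28, 0.38, -0.19, 0.27 and -0.07 in the same order. The part of glial RNA, of Rn45s and of span in the members' values was not tested.

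The first comparison between groups set cocaine against saline self-administration, which differ in the drug and also in the lane. Values of the members were mostly higher after cocaine, by a median of 1.22-fold, but no member passed the test. The quasi-likelihood test of edgeR, adjusted by Benjamini-Hochberg, called 0 of 47 members and 0% of 14680 genes (smallest adjusted p = 0.999), and DESeq2 and limma-voom also called 0 members. The log2 fold change was above 0 for 44 of 47 members, where 50.6% of all genes were, and its median was 0.29, against 0.0036 for all genes. The 3 below 0 were the low forms Cox4i2, Cox6b2 and Cox6a2, of which Cox4i2 and Cox6b2 had a mean count under 10 and are given by name only between groups. At an unadjusted p under 0.05 there were 11 members, all higher, where 1.79% of all genes were higher, 1.05% lower and 2.84% either. DESeq2 and limma-voom each gave 9 such members. In 16 members all 3 cocaine libraries lay above all 3 saline libraries (6.38% of all genes), and in 0 they lay below (5.08%). These 16 were Cyc1, Uqcrb, Uqcrc1, Uqcrc2 and Uqcrfs1 of complex III, Cox6b1, Cox6c, Cox7b, Cox7c and Cox8a of complex IV, and Atp5f1, Atp5g1, Atp5j, Atp5j2, Atp5k and Atp5s among the complex V symbols, with none from complex II. The count of 11 changed with single libraries, being 3 without cocaine 3, 4 without cocaine 2 or saline 3, 18 without cocaine 1 and 26 without yoked 3. Yoked 3 is in neither group of this comparison and enters through the fit shared by all pull-downs. The share of all genes at this p was not counted for DESeq2, limma-voom or the fits without 1 library. Those counts therefore cannot be read as particular to the members. With the counts scaled to the library total alone, 12 members in place of 16 did not overlap.

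Cox8a, a small subunit of complex IV (chr19:7215158-7217616), had the largest log2 fold change. It was at 474, 454 and 445 normalised CPM in saline, 620.2, 685 and 714 in cocaine and 556, 434 and 591 in yoked libraries 1, 2 and 3. The cocaine libraries were above all 6 others and the saline libraries were close to each other. Means were 673 ± 48.1 after cocaine and 458 ± 14.7 after saline (SD, n = 3 per group). The fitted log2 fold change was 0.56 ± 0.14 (SE), with an unadjusted edgeR p of 0.00125 and a Benjamini-Hochberg adjusted p of 0.999. Its log2 fold change stayed between 0.49 and 0.61 over all alternatives.

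Cyc1 (chr15:76343513-76346260) was at 113, 108 and 98.7 normalised CPM in saline, 127, 154 and 152 in cocaine and 109, 100.5 and 115 in yoked libraries. All 3 cocaine libraries were above all others, with cocaine 1 nearest to them. The log2 fold change against saline was 0.44 ± 0.13 (SE). Uqcr10 (chr11:4701968-4704344) was at 284, 250.3 and 247 in saline and 278, 402 and 406 in cocaine libraries, so that cocaine 1 lay among the saline libraries. Its log2 fold change was 0.48 ± 0.17. Cox6b1 (chr7:30616971-30626114), which faces the intermembrane space, was at 288, 266 and 210.4 against 317, 396 and 349, without overlap, and its log2 fold change was 0.48 ± 0.15. Atp5j2, subunit f of the membrane part of complex V, was at 121, 119 and 105 against 127, 167 and 159, again without overlap and with cocaine 1 closest to saline, at 0.39 ± 0.15. The low members Cox7a1, Atp5g2 and Cox6a2 had 0.54 ± 0.76, 0.32 ± 0.72 and -0.03 ± 0.70, and Cox7a1 had -0.018 without cocaine 2.

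**Figure D4:**
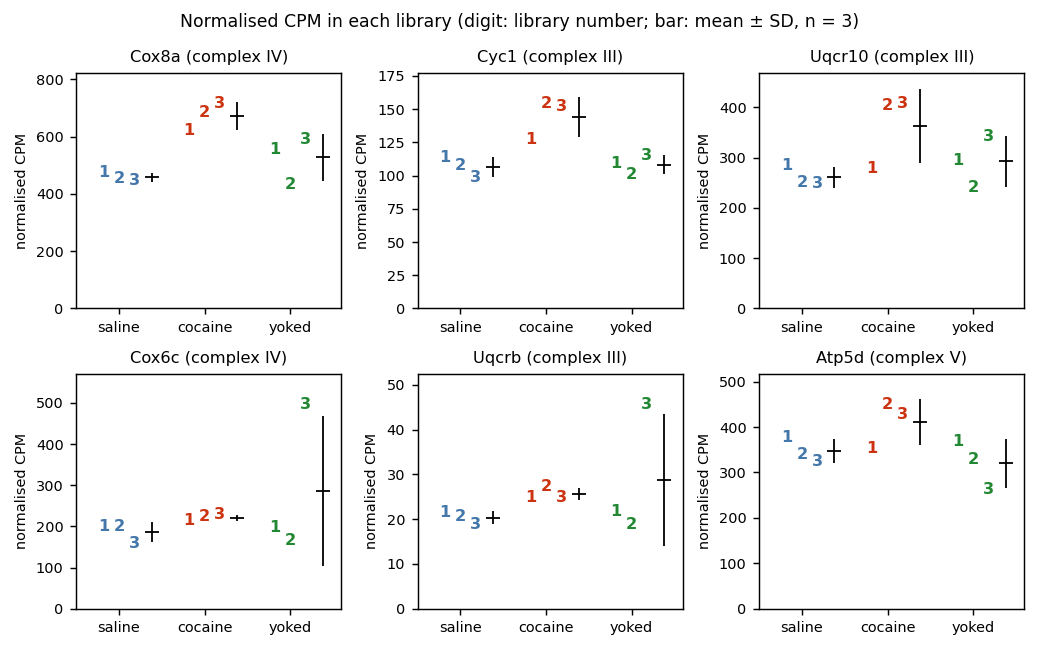
Normalised CPM (vertical axis, from 0) of 6 members in the 9 pull-downs by group (horizontal axis); digits are library numbers and bars the mean ± SD of 3 libraries. For Cox8a and Cyc1 the 3 cocaine libraries lie above the other 6, for Uqcr10 cocaine 1 falls among the other groups, and for Cox6c and Uqcrb yoked 3 stands above the other 8 libraries, whereas for Atp5d it stands below them.

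By complex, the median log2 fold change was 0.13 for complex II (4 of 4 higher), 0.36 for complex III (9 of 9), 0.05 for Cycs, 0.32 for the 11 expressed members of complex IV (11 of 11) and 0.25 for the 15 of complex V (15 of 15). In complex II, Sdha was at 359, 373 and 379.5 against 388, 338 and 407 (0.03 ± 0.14) and Sdhb at 119, 124 and 98.0 against 116, 149 and 150.2 (0.28 ± 0.14), both with overlap. Sdhc had 0.09 and Sdhd 0.17. In complex III, Uqcrc1 had 0.36 and Uqcrfs1 0.16. In complex IV, Cox4i1, a regulatory subunit, was at 575, 522 and 420.3 against 526, 707 and 744, with cocaine 1 among the saline libraries (0.38 ± 0.17), and Cox5a, Cox5b, Cox6a1 and Cox7a2 had 0.15, 0.28, 0.23 and 0.29. In complex V the catalytic pair had small values, with Atp5b at 2020.5, 2086 and 1938 against 2031, 2033 and 2124 (0.03 ± 0.12) and Atp5a1 at 0.12, while Atp5e had 0.29, Atp5g1 0.36 and Atp5g3 0.17. Standard errors of the expressed members ran from 0.12 to 0.34 on the log2 scale, and a missed threshold does not show equal levels. Across the 40 members the log2 fold change had a Spearman rho of -0.37 with genomic span, and across 9693 genes -0.43.

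**Figure D5:**
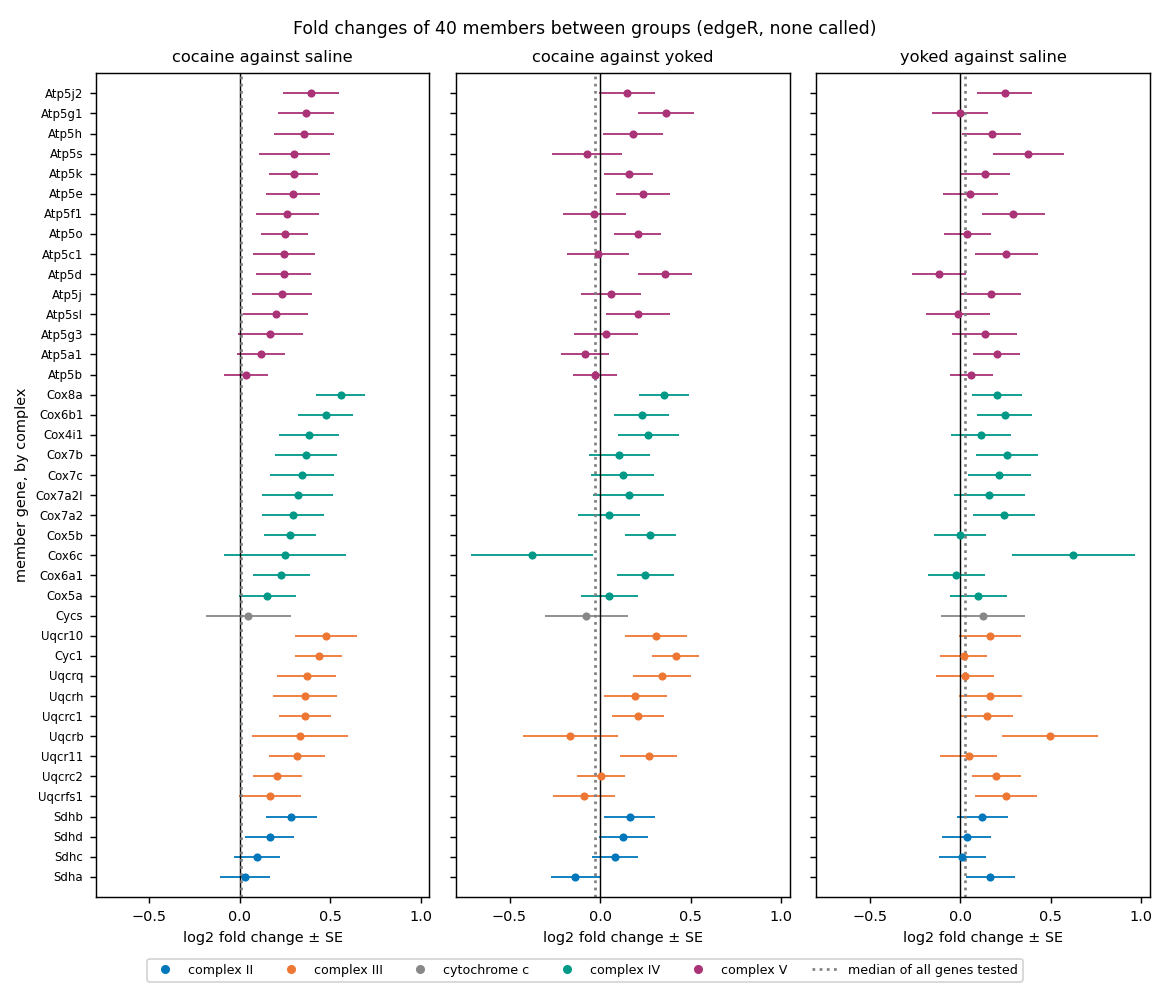
Log2 fold change ± SE (horizontal axis) of the 40 expressed members (vertical axis, by complex) in the 3 comparisons, with the median of all tested genes dotted. All 40 lie above 0 for cocaine against saline, 30 of 40 for cocaine against yoked and 36 of 40 for yoked against saline; none was called.

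Cocaine was next compared with the yoked control, using the same cocaine libraries as above. Most members were again higher, with a median log2 fold change of 0.15 and 34 of 47 above 0 (45.5% of all genes). Of 47 members 0 were called, as were 0% of genes (edgeR, Benjamini-Hochberg, smallest adjusted p = 0.974; DESeq2 and limma-voom called 0 members too). An unadjusted p under 0.05 was reached by 4 members, all higher (1.36% of genes were higher and 2.58% either): Cyc1, Cox8a, Atp5d and Atp5g1. The groups did not overlap for 4, all higher (3.42% of genes were): Cyc1, Cox8a, Atp5g1 and Atp5o, the stalk subunit OSCP. Cyc1 had a log2 fold change of 0.42 ± 0.13 (144 ± 15.0 against 108 ± 7.19 normalised CPM, SD, n = 3 each) and Cox8a 0.35 ± 0.14. Atp5g1, a c-ring gene (chr11:96072793-96075694), was at 23.6, 25.5 and 26.7 in cocaine and 21.9, 18.6 and 18.3 in yoked libraries, with saline at 21.8, 19.0 and 18.1, a log2 fold change of 0.36 ± 0.15. Cocaine was thus above both other groups without overlap for Cyc1, Cox8a and Atp5g1, whose 2 comparisons share the cocaine libraries. The share of all genes that met both was not counted, so this describes these 3 members only.

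The comparison with the yoked group turned on single libraries. Without yoked 3 the median was 0.27, 44 of 47 members were higher and 15 had an unadjusted p under 0.05, without cocaine 2 the median was 0.04 and 1 had such a p, and without yoked 2 the median was 0.06 and 27 were higher. Without cocaine 3 the median was 0.10 and 1 member had such a p, and without cocaine 1 the median was 0.25 and 10 had. The share of all genes with such a p was not counted in these fits. Atp5d, of the central stalk, had 0.36 ± 0.15 with 1 yoked library, yoked 3, below all others. Cox6c had -0.37 ± 0.34, and 0.28 without yoked 3. The low members Cox6a2 and Atp5g2 had -0.74 ± 0.66 and -0.38 ± 0.67, the latter 0.09 without yoked 2. By complex the medians were 0.11 for complex II, 0.21 for complex III, -0.08 for Cycs, 0.16 for the expressed members of complex IV and 0.15 for those of complex V. Sdha (-0.14), Uqcrfs1 (-0.09), Atp5a1 (-0.08) and Atp5b (-0.03) were among those below 0, and Sdhb, Sdhc and Sdhd had 0.16, 0.08 and 0.13. In complex IV, Cox4i1, Cox5a, Cox5b, Cox6a1, Cox6b1 and Cox7a2 had 0.27, 0.05, 0.28, 0.25, 0.23 and 0.05, and in complexes III and V, Uqcrc1, Atp5e and Atp5g3 had 0.21, 0.24 and 0.03. Cox7a1 had 0.32 ± 0.72.

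Yoked mice were compared with saline mice last. Of 47 members 41 had a log2 fold change above 0 (55% of genes) with a median of 0.16, and 0 were called, as were 0% of genes (edgeR, Benjamini-Hochberg, smallest adjusted p = 0.999). No member reached an unadjusted p under 0.05 by edgeR (1.84% of genes did) or DESeq2, and 1 did by limma-voom; among all genes 1.16% were higher at this p. Uqcrc1 was the single member whose yoked libraries all lay above the saline ones (3.3% of genes) and Cox6b2, with a mean count under 10, the single one below (3.39%). This shift rested on yoked 3. Without it the median was 0.02 and 28 of 47 were higher, and with the libraries numbered 1 and 2 alone it was -0.04 with 16 higher. Without saline 3 it was 0.10, and without yoked 2 it was 0.23 and 10 members had an unadjusted p under 0.05. The share of all genes at this p without yoked 2 was not counted.

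Yoked 3 had a wider spread of deviations than the other 8 libraries, over the members as over genes in general. It was the highest of the 9 libraries for 16 of 40 expressed members and the lowest for 2. Of 9856 genes it was the highest library for 3150 and the lowest for 2509. Its deviations had an SD of 0.30 over the members against 0.09 to 0.15 in the other 8 libraries. Over 9856 genes this SD was 0.41 in yoked 3 and 0.15 to 0.26 in the others, so the wider spread was shared by genes in general. Cox6c (chr15:35931976-35938246) was at 497 normalised CPM in yoked 3 and 159 to 228 in the other 8 libraries, and 2.72-fold above the mean of yoked 1 and yoked 2. Uqcrb (chr13:66900576-66905350), a small subunit of complex III, was at 45.7 against 18.8 to 27.3, 2.22-fold. They were the 2 of 40 members more than 2-fold from the other yoked libraries, as were 480 of 9856 genes, and they stood at percentiles 99.8 and 99.1 of those genes. Atp5f1, Atp5s, Cycs, Uqcrfs1, Atp5c1 and Atp5g3 were 1.61 to 1.53-fold higher in yoked 3. On the other side Atp5d was at 263 against 325 to 450.2 in the other 8 libraries and Atp5sl at 28.6 against 30.1 to 44.6, while Cox7c (14.5), Cox5b (106), Uqcrc1 (105), Sdhb (122) and Atp5g1 (18.3) differed little from yoked 1 and yoked 2. Relative to yoked 1 and yoked 2, Cox6c stood at 2.72-fold and Cox5b at 1.02-fold within complex IV, and Atp5f1 at 1.61-fold and Atp5d at 0.754-fold within complex V.

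Because of yoked 3, the members with the largest differences between yoked and saline were not stable. Cox6c had 0.62 ± 0.34 (SE) and -0.03 without yoked 3, Uqcrb 0.50 ± 0.26 and -0.0078, Atp5s 0.38 ± 0.20 and 0.11, and the low member Atp5l 0.34 ± 0.68 and -0.07. The low members Cox6a2, Atp5g2 and Cox7a1 had 0.71 ± 0.68, 0.70 ± 0.70 and 0.22 ± 0.76. Of the other genes named throughout, Cyc1 had 0.02, Cycs 0.12, Uqcrfs1 0.25, Cox8a 0.20, Cox4i1 0.12, Cox5a 0.10, Cox6a1 -0.02, Cox6b1 0.25, Cox7a2 0.24, Atp5a1 0.20, Atp5b 0.06, Atp5e 0.06 and Atp5g3 0.14, and the 4 genes of complex II 0.01 to 0.17. Cox5b and Atp5g1 were at equal group means, 104 and 104 and 19.6 and 19.6 normalised CPM, with standard errors of 0.14 and 0.15 on the log2 scale.

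Other genes of the pathway were compared between the groups in the same fit, and 0 of them were called in any of the 3 comparisons (edgeR, Benjamini-Hochberg). For cocaine against saline, complex I had a median log2 fold change of 0.28 with 43 of 44 higher. In this list 9 had an unadjusted p under 0.05 and 17 did not overlap, all higher. Of all genes, 1.79% were higher at this p and 6.38% were higher without overlap. Cytosolic ribosomal protein genes had 0.24 with 74 of 80 higher, 11 with such a p and 8 without overlap, all higher. Assembly factors had 0.16 with 22 of 31 higher, and 2 with an unadjusted p under 0.05, Pet100 (0.65 ± 0.20) and Uqcc2 (0.54 ± 0.19), which serve complexes IV and III. Atpif1 was at 238, 245 and 227 normalised CPM in saline and 287, 339 and 306 in cocaine libraries, without overlap (0.39 ± 0.15), and at 261, 245 and 365 in yoked libraries (0.10 ± 0.15 for cocaine against yoked and 0.29 ± 0.15 for yoked against saline). The transcription regulators had a median of -0.11 with 2 of 9 higher. Nrf1, whose product binds the NRF1 motif shown above, was at 16.1, 13.6 and 21.1 in saline and 13.3, 13.6 and 11.0 in cocaine libraries (-0.43 ± 0.20), and Ppargc1a, a coactivator of mitochondrial genes, at 129, 121 and 120.3 against 152, 96.2 and 93.9 (-0.11 ± 0.17). The 2 higher regulators were Esrra (0.28 ± 0.23) and Gabpb1 (0.0081 ± 0.21). Gabpa had -0.15 ± 0.15, Ppargc1b -0.21, Pprc1 -0.13, Tfam -0.10 and Yy1 -0.07. A link between these levels and the motifs was not tested.

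Against the yoked control the medians were 0.12 for complex I (36 of 44 higher), 0.06 for assembly factors (20 of 31) and 0.19 for ribosomal protein genes (71 of 80), and for yoked against saline 0.15 (34 of 44), 0.09 (24 of 31) and 0.07 (52 of 80). Ribosomal protein genes did not share the pattern of yoked 3: 23 of 52 were above their mean there (median -0.05) and 52 of 52 in cocaine 2 (0.40). Ndufa4, Usmg5, Atpif1 and 2010107E04Rik were each highest in yoked 3, as Cox6c and Uqcrb were. Ndufa4 was at 542 normalised CPM there and 246 to 359 elsewhere, Usmg5 at 9.86 against 4.02 to 6.18, and 2010107E04Rik at 289 against 142 to 209.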

How the data were processed

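Ribosome-bound RNA of 9 pull-downs and total RNA of 1 input were sequenced. Per the submitters' processing notes the authors aligned reads with STAR 2.0.0e to mm10 and made the deposited gene counts with HTSeq. Which HTSeq version, annotation and strand setting applied is not given in the sources used here. Reads aligned to more than 1 place are outside these counts, as per the files' closing summary lines, which were left out of totals and tests.

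Counts were tested with edgeR 4.0.16 (R 4.3.3, TMM, filterByExpr, robust quasi-likelihood fit with group as the only term over the 9 pull-downs, Benjamini-Hochberg over 14680 genes, threshold 0.05). Of 49 members 47 passed the filter; Cox8b and Cox8c did not. Against the input, log2 ratios of CPM + 0.5 were taken for genes with an input count of at least 50, and pooled ratios of low genes have 95% exact intervals that cover counting error only. With 3 counts as the floor, depth allowed 0.0663 to 0.239 CPM to be seen in a pull-down. DESeq2 1.42.0 and limma 3.58.1 (voom) were alternatives, as were other scalings, filters and left-out libraries. Python 3.11.15 with pandas 2.3.3, numpy 2.4.6 and scipy 1.17.1 made the tables and matplotlib 3.10.9 the figures. Promoters and positions came from RefSeq on GRCm38.p6, where 49 of 49 members matched by symbol or synonym.

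Members, lists and the rule for named genes were chosen with earlier results of these data known. The rule names the 6 members of largest absolute log2 fold change per comparison (mean count at least 10), those named for their role in each complex, and the highest and lowest against the input. The split at 5 CPM, the choice of promoters, the yoked 3 description and the genes singled out in other lists were made after values were seen. The ribosomal list holds 83 rows and leaves out kinases and mitochondrial ribosomal proteins.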

Additional observations from a re-analysis of the deposited data

How the results depend on the processing

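In all alternatives the count of members called was 0 in each comparison, 0 to 0 when single libraries were left out. Without 1 library at a time, members with an unadjusted p under 0.05 ranged from 3 (without cocaine 3) to 26 (without yoked 3) for cocaine against saline, from 1 to 15 for cocaine against yoked and from 0 to 10 for yoked against saline, and genes called from 0 to 1 for cocaine against saline and from 0 to 1 for yoked against saline. The yoked against saline median ranged from 0.023 (without yoked 3) to 0.23 (without yoked 2). Directions turned for Cox7a1 in cocaine against saline (-0.018 without cocaine 2, up to 1.02), for Atp5g2 (-0.69 to 0.085, the latter without yoked 2) and Cox6c (-0.64 to 0.28) in cocaine against yoked, and for Cox6c (-0.031 to 0.89), Uqcrb (-0.0078 to 0.71) and Atp5l (-0.065 to 0.57) in yoked against saline; apart from Cox7a1 and Atp5g2, all without yoked 3. With libraries numbered 1 and 2 alone, cocaine against saline had 5 such members and 1 gene called, cocaine against yoked 8 members and Cox6c at 0.26, and yoked against saline 1 member, 16 members higher, a median of -0.039, Cox6c at -0.14 and Uqcrb at -0.063. With 2 groups only in the fit, the members were 20 (1 gene called), 2 and 1 in the 3 comparisons. DESeq2 called 1 gene for cocaine against saline. Yoked against saline had 1 such member without Rn45s or with limma-voom, 3 with no filter on low counts, and 0 members without overlap under scaling to the library total, a setting chosen after seeing the data. The cause of these changes was not tested, and some of the settings also hold fewer samples. The share of all genes with an unadjusted p under 0.05 was not counted in any of the alternatives. The labels give no shared animal or day behind a replicate number, and correlations of deviations were -0.017 to 0.25 for 9 same-numbered pairs, with 6 over 0.1 (all those of libraries 2 and 3), against -0.25 to 0.15 for 18 other pairs. Since not every pair was over 0.1, pairing was not taken as given, although 7 of 9 libraries correlated best with one of their own number, a hint from the data and not the design. With the replicate block 1 gene was called in each comparison, 0 of them a member, and members with such a p were 10, 4 and 2. The members above the input in all 9 pull-downs were 39 or 40 under every setting. Depth limits the low members, where 3 counts equal 0.0663 to 0.239 CPM.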
